A study of Mus musculus with 2 samples.

Results

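The microRNA genes described here form the family of mir-15, mir-16, mir-195 and mir-497 in the mouse, measured in hearts at embryonic day 12.5. They were taken by gene symbol from the microRNA genes in the count tables, and 6 of 1973 genes belong to it. These are Mir15a, Mir16-1, Mir15b, Mir16-2, Mir195a and Mir497b, the last read through its opposite strand, where Mir497 lies. The rule is their symbol, with no threshold on a measured value. Small RNA in the size range of microRNAs was sequenced from whole hearts of embryos of the strain B6NCrl, with males and females pooled. Both libraries are biological replicates of this 1 group, with no modified allele or treatment in the labels, so there is no contrast between conditions. The number of embryos behind each replicate is not given in the sources used here. Replicate 1 gave 9235580 reads and 4478599 counts on the strand of a microRNA gene (sense counts), and replicate 2 gave 10601121 reads and 5279908 sense counts.

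A microRNA is cut from a hairpin transcript that holds a 5p and a 3p arm, and the arm that is loaded into an Argonaute protein pairs with messenger RNAs, mostly through its seed near the 5′ end. MicroRNAs with 1 seed can act on shared targets. The 5p arms of this family are known as brakes on the cell cycle and on survival, with targets that include cyclins, Cdc25a, Chek1 and Bcl2. The human counterparts of Mir15a and Mir16-1 are lost in many chronic lymphocytic leukaemias. In the mouse heart, miR-195 is known for its rise around birth, when heart muscle cells leave the cell cycle. At the embryonic stage measured here these cells still divide.

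The 5p arms of the family are printed because their shared start defines it, while their ends set apart what can be counted. The sequences are those of RefSeq on GRCm38.p6, written 5′ to 3′, with bases 2 to 8 (the seed) in capitals. All 6 members had an entry for a mature arm in that table.
miR-15a-5p: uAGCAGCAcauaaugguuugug
miR-15b-5p: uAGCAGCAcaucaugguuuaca
miR-16-5p: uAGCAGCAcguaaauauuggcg
miR-195a-5p: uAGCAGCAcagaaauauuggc
miR-497a-5p: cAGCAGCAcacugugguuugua

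The seed AGCAGCA was the same in these arms, and 10 of 1679 mature microRNA names in the RefSeq table (0.596%) carried it. Past the seed the arms fell apart to unequal degrees. Positions are counted from 1 at the 5′ end, and the first-named arm's base is written first. From miR-16-5p to miR-195a-5p there were 2 substitutions in the 21 bases compared, G10A and U11G. From miR-15a-5p to miR-15b-5p there were 4 in 22 bases, A12C, G20A, U21C and G22A. From miR-16-5p to miR-15a-5p there were 6, G10A, A14U, U15G, A16G, G19U and C21U. miR-497a-5p was nearest to miR-15a-5p, with 5 substitutions, U1C, U11C, A12U, A13G and G22A.

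The 3p arms are shown because they all differ from each other, so that reads of a whole arm can be told apart. Capitals mark the letters UGCUGCU, the reverse complement of the seed.
miR-15a-3p: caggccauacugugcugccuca
miR-15b-3p: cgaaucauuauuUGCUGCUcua
miR-16-1-3p: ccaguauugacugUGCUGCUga
miR-16-2-3p: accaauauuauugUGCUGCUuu
miR-195a-3p: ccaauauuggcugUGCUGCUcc
miR-497a-3p: caaaccacacugugguguuag

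Of the 6 arms, 4 held these letters, searched on the strand printed. Over all mature names in the table, with these 4 included, 0.298% held them, so that share is no independent background. The arms of miR-15a and miR-497a did not hold them. The 3p arm faces the 5p arm in the hairpin, where these letters can pair with the seed. Any role as a target site was not tested. Each 3p arm differed by at least 4 bases from any stretch of another hairpin or arm in the RefSeq table on either strand, with Mir497b across from Mir497 left aside.

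Mir16-1 and Mir16-2 give the same miR-16-5p. Their hairpins are printed with the longest run they share in capitals, since reads that lie within that run fit both loci and are counted to neither.
Mir16-1: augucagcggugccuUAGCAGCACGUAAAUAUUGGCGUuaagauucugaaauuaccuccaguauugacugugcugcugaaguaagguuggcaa
Mir16-2: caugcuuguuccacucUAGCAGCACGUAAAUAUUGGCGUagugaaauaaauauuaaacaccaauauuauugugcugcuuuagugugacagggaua

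The shared run was 23 bases long, the whole miR-16-5p and 1 base more. Of the stretches of 22 bases in each hairpin, 2 of 72 in Mir16-1 and 2 of 74 in Mir16-2 also lay in another hairpin. In Mir15b, Mir195a, Mir497 and Mir497b none of the 43, 73, 63 and 104 stretches did, with the overlap of Mir497 and Mir497b on opposite strands left aside. Mir15a had no hairpin in the RefSeq table, so its stretches were not searched. Neither of its mature arms lay whole in another hairpin. The counts of Mir16-1 and Mir16-2 therefore cover reads that hold at least 1 base outside the run, from either arm. Which arm they came from is not in the tables, and how mismatches were treated is not given in the sources used here. These counts do not measure the total of miR-16-5p. Reads that fit several places numbered 2503492 in replicate 1 and 2677232 in replicate 2, or 99.0 and 85.2 for each count of the whole family, and their origin was not tested.

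The family lay at 3 places, each a pair of hairpins on 1 strand, in the annotation of GENCODE M21 on GRCm38 (mm10). Identifiers are those of the count tables, and positions those of M21, where Mir15b has the later version ENSMUSG00000065580.2. Mir15a (ENSMUSG00000093007.1, chr14:61632027-61632110) and Mir16-1 (ENSMUSG00000092995.1, chr14:61631880-61631972) lay on the minus strand within Dleu2, a long non-coding RNA gene. Both are intronic, except that 13 bases of Mir16-1 overlapped an exon of a Dleu2 transcript. Mir15b (ENSMUSG00000065580.1, chr3:69009772-69009835) and Mir16-2 (ENSMUSG00000065606.1, chr3:69009902-69009996) lay on the plus strand in an intron of Smc4, the gene of a condensin subunit that packs chromosomes for division. Mir195a (ENSMUSG00000065411.2, chr11:70235042-70235135) and Mir497 (chr11:70234717-70234800) lay on the plus strand within no other annotated gene of that strand. Mir497b (ENSMUSG00000070109.2, chr11:70234692-70234816) lay on the minus strand over all 84 bases of Mir497. The hairpins of a pair were 54 bases apart for Mir15a and Mir16-1, 66 for Mir15b and Mir16-2, and 241 for Mir497 and Mir195a.

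**Figure D1:**
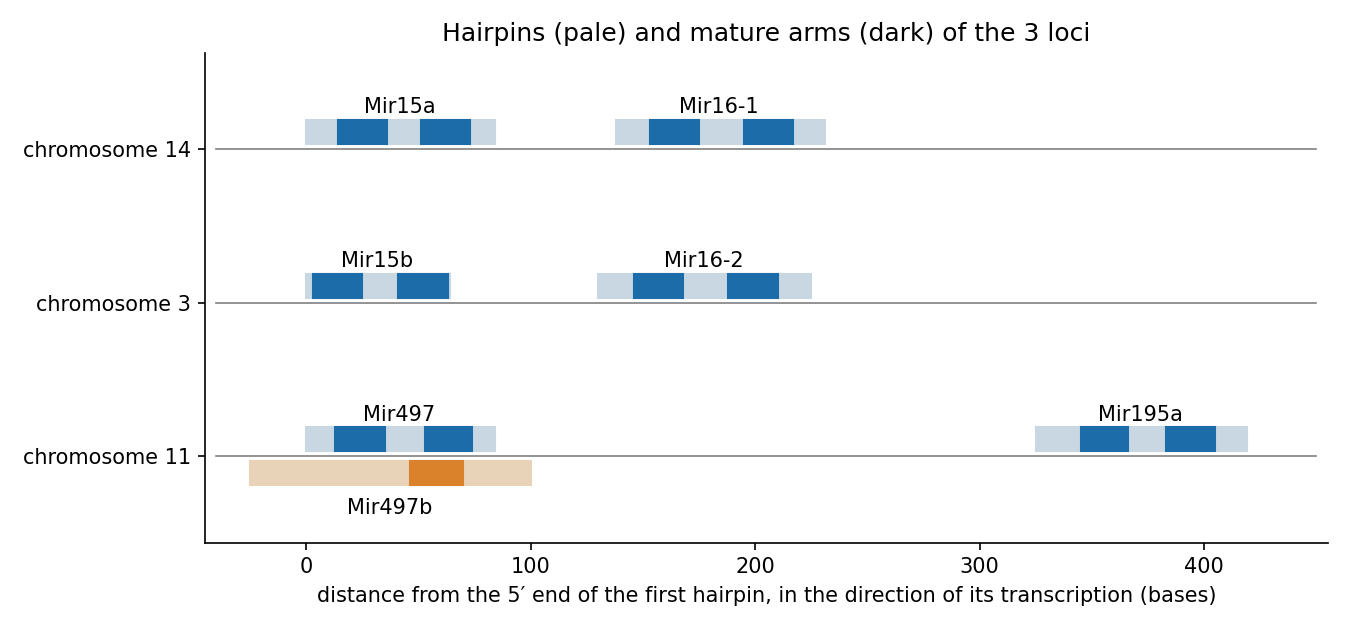
The 3 loci, with distance in bases from the 5′ end of the first hairpin on the x axis, in the direction of transcription of the pair. Pale bars are hairpins and dark bars their mature arms, blue on the strand of the pair and orange on the opposite strand: Mir497b covers all 84 bases of Mir497.

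The family as a whole was measured by its share of the heart's microRNA counts, which leaves out the reads shared by Mir16-1 and Mir16-2. Its 6 members summed to 25282 counts in replicate 1 and 31434 in replicate 2. These were 0.565% of the sense counts (95% Wilson interval 0.558 to 0.571) and 0.595% (0.589 to 0.602), a mean of 0.580% ± 0.0218 (SD, n = 2). The difference between the libraries was larger than counting error. Counts of Mir497b stand on the opposite strand and so are not part of the denominator. Intervals here cover counting error only and treat each read as independent. Reads are not counted here by molecular identifier, so copies of 1 molecule could make the intervals too narrow. Statements about counting error hold under that assumption of independence. In whole tissue, fewer cells of a type and less RNA per cell cannot be told apart.

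The pair within Dleu2 held the larger part of these counts, which lack the shared mir-16 reads of the Dleu2 and Smc4 pairs. Mir15a and Mir16-1 made up 67.2% ± 0.866 (SD, n = 2) of the family's counts, Mir15b and Mir16-2 20.7% ± 0.151 (SD, n = 2), and Mir195a with Mir497 12.2% ± 0.715 (SD, n = 2). The order of the 3 loci was the same in both libraries, and their ranges did not overlap. Levels below are in CPM, counts for each 1000000 sense counts of the library. They were not divided by hairpin length, because a read of this size class spans a mature molecule. With 2 libraries, an exact permutation test of 2 values against 2, without regard to pairing, cannot go below p = 0.333. Members are measured in the same 2 libraries, and pairing them would not lower this limit. Differences between members are therefore set against their spread and not tested.

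Mir15a stood highest, at 9525 counts (2127 CPM) in replicate 1 and 11500 counts (2178 CPM) in replicate 2, a mean of 2152 ± 36.3 CPM (SD, n = 2). It was number 57 of the 1973 genes by mean level. The libraries were almost level, and both lay above every value of the other members.

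Mir16-1, its neighbour in Dleu2, had 7300 counts (1629.97 CPM) and 9804 counts (1857 CPM), a mean of 1743 ± 160.4 CPM (SD, n = 2). Its level was lower than that of Mir15a in both libraries, and replicate 2 was the higher. The value leaves out reads within the shared run of miR-16, so its place below Mir15a holds for these counts and not for the mature microRNAs.

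Mir15b, from the Smc4 intron, had 3822 counts (853 CPM) and 4367 counts (827 CPM), a mean of 840.2 ± 18.6 CPM (SD, n = 2). It stood below Mir16-1 and above the remaining members without overlap. Its partner Mir16-2 had 1431 counts (319.5 CPM) and 2097 counts (397 CPM), a mean of 358 ± 54.9 CPM (SD, n = 2). Replicate 2 was the higher here, as for Mir16-1.

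Reads on the Mir497 strand at Mir497b numbered 1770 (395 CPM) and 2122 (402 CPM), a mean of 399 ± 4.73 CPM (SD, n = 2). On the strand of Mir497b itself there was 1 count in replicate 1 and 0 in replicate 2, which allows up to 0.568 CPM there. The table that lists Mir497b has no row for Mir497, so its sense count alone would show the locus as nearly empty. Across the other 5 members no read lay on the opposite strand in either library.

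Mir497b is annotated as its own microRNA, and its sequence runs against the 3p arm of Mir497, with 17 complementary bases in a row. The pair is printed with these bases in capitals, as it shows why only the strand tells them apart.
miR-497a-3p: CAAACCACACUGUGGUGuuag
miR-497b: CACCACAGUGUGGUUUGgacgugg

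Mir195a, the member best known from the heart around birth, had 1434 counts (320.2 CPM) and 1544 counts (292 CPM), a mean of 306 ± 19.6 CPM (SD, n = 2). It was lowest by mean level, at number 123 of the 1973 genes. Its 5p arm is the 1 that comes closest to another member without being the same, 2 bases from miR-16-5p.

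Neighbours at the lower end of the order were not separated. The ranges of Mir497 and Mir16-2 overlapped, although Mir497 was higher in both libraries, by 395 against 319.5 CPM and by 402 against 397 CPM. Mir16-2 and Mir195a changed places, with 319.5 against 320.2 CPM in replicate 1 but 397 against 292 CPM in replicate 2. The 3 upper members kept their order with gaps of 409 CPM from Mir15a to Mir16-1 and 903 CPM from Mir16-1 to Mir15b in the means.

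**Figure D2:**
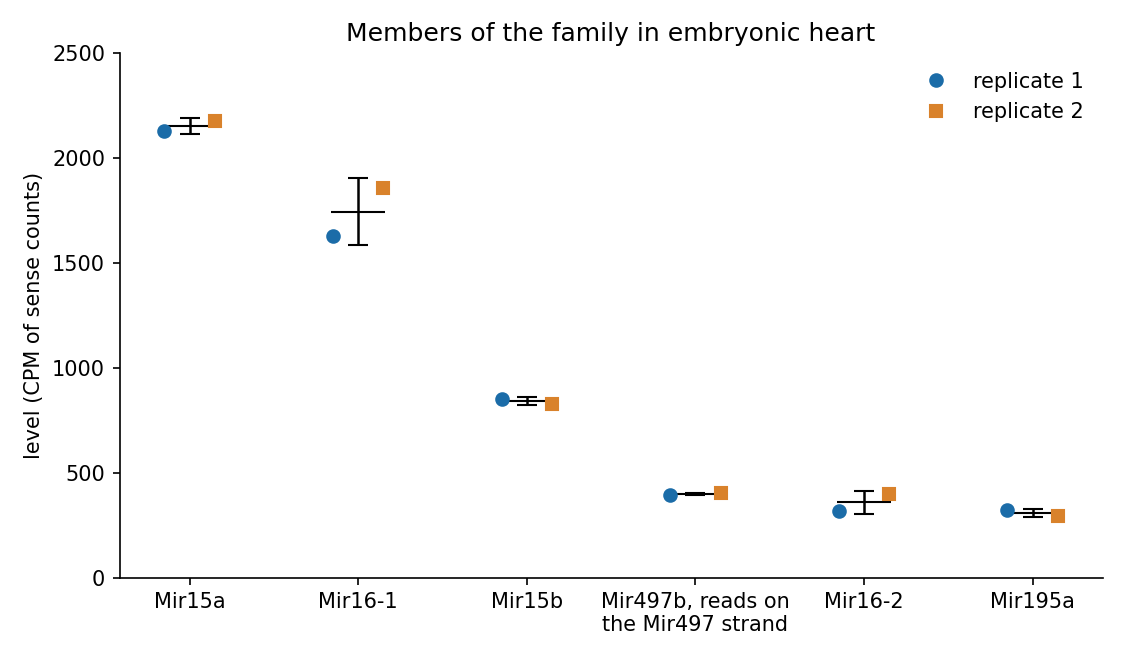
Level of each member in CPM of sense counts (y axis, from 0), with replicate 1 as circles, replicate 2 as squares, and the mean and SD of the 2 libraries as black bars. Mir15a and Mir16-1 stand between 1629.97 and 2178 CPM, Mir15b near 840.2 CPM, and the other 3 members between 292 and 402 CPM.

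Ratios within a library do not depend on the library total. The copy of each kind in Dleu2 was counted above the copy in Smc4. Mir15a exceeded Mir15b 2.49-fold in replicate 1 (95% counting interval 2.40 to 2.59) and 2.63-fold in replicate 2 (2.54 to 2.73), a mean of 2.56 ± 0.0999 (SD, n = 2). Mir16-1 exceeded Mir16-2 5.10-fold (4.82 to 5.40) and 4.68-fold (4.46 to 4.90), a mean of 4.89 ± 0.301 (SD, n = 2). Reads within the shared run are missing from the counts of both mir-16 genes alike, so their ratio is one of reads that reach outside it. Directly after the run the base is U in Mir16-1 and A in Mir16-2. Whether some reads were assigned by bases added at their ends was not tested. Summed over both hairpins, the Dleu2 pair exceeded the Smc4 pair 3.25-fold ± 0.0657 (SD, n = 2).

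Within a pair, the mir-15 hairpin was counted above the mir-16 hairpin at both loci. Mir15b over Mir16-2 was 2.67 in replicate 1 (2.51 to 2.84) and 2.08 in replicate 2 (1.98 to 2.19). Mir15a over Mir16-1 was 1.30 (1.27 to 1.35) and 1.17 (1.14 to 1.21). In both pairs the intervals of the libraries did not overlap, and both ratios were lower in replicate 2. These ratios thus varied between replicates by more than counting error. The mean ratios were 2.38 ± 0.416 and 1.24 ± 0.0932 (SD, n = 2), and in each the mir-16 side leaves out its shared reads. Mir497 over Mir195a was 1.23 (1.15 to 1.32) and 1.37 (1.29 to 1.47), a mean of 1.30 ± 0.0990 (SD, n = 2), with Mir497 the higher in both libraries.

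**Figure D3:**
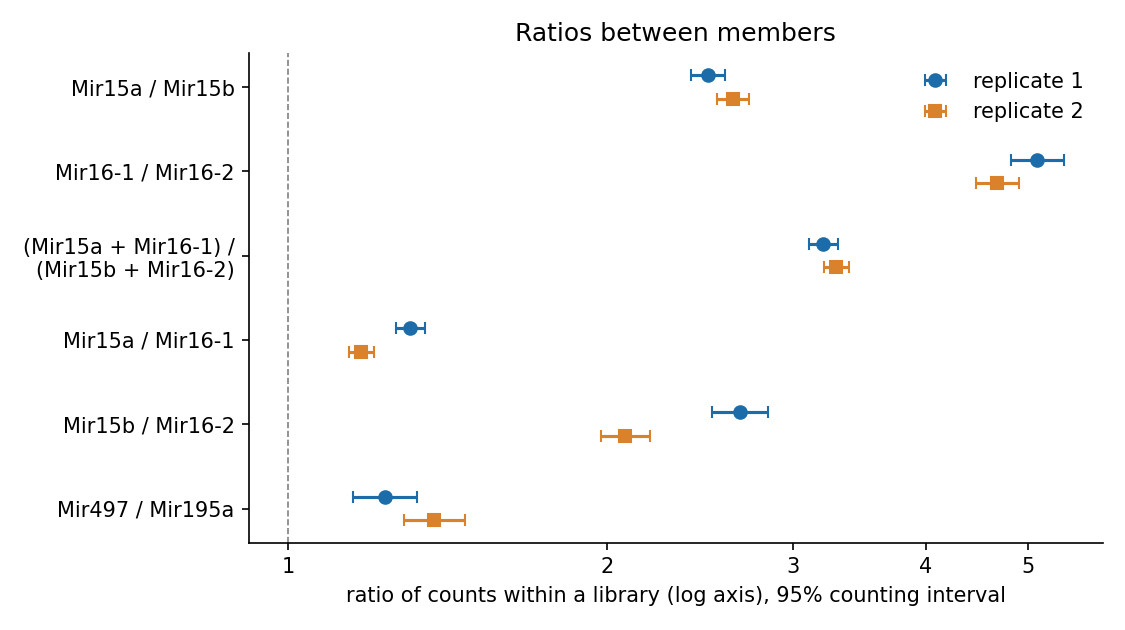
Ratio of counts between members within each library on a log axis, with 95% counting intervals as bars, replicate 1 as circles and replicate 2 as squares. The 6 ratios lie above 1 (dashed line) in both libraries, and the intervals of the libraries are apart only for Mir15a over Mir16-1 and Mir15b over Mir16-2.

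No member differed widely between the libraries. A gene was called apart where its CPM differed by 1.5-fold or more in either direction, and this compares 2 libraries, not conditions. Of the 6 members, 0 were apart, while 67 of 444 genes with at least 10 counts in total were (15.1%). All 6 members passed that filter, Mir497b through its opposite strand. Since fewer counts bring a wider spread, the nearer background is the 62 other genes whose mean level lay within that of the members, of which 2 (3.23%) were apart. A count of 0 in 6 does not set the family apart from that share. The median absolute log2 ratio was 0.09 over the members, 0.10 over those 62 genes and 0.20 over all 444.

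Mir16-2 differed most, with a ratio of replicate 2 to replicate 1 of 1.24 (95% counting interval 1.16 to 1.33), a log2 ratio of 0.31. Mir16-1 followed at 1.14 (1.11 to 1.17) in the same direction. Mir195a was the lower in replicate 2, at 0.913 (0.849 to 0.982). These 3 intervals leave out 1, so the differences were larger than counting error. Among the 62 other genes of like level, 7 were as far apart as Mir16-2 or farther. Mir15a at 1.02 (0.997 to 1.05), Mir497 at 1.02 (0.954 to 1.08) and Mir15b at 0.969 (0.928 to 1.01) did not differ by more than counting error.

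**Figure D4:**
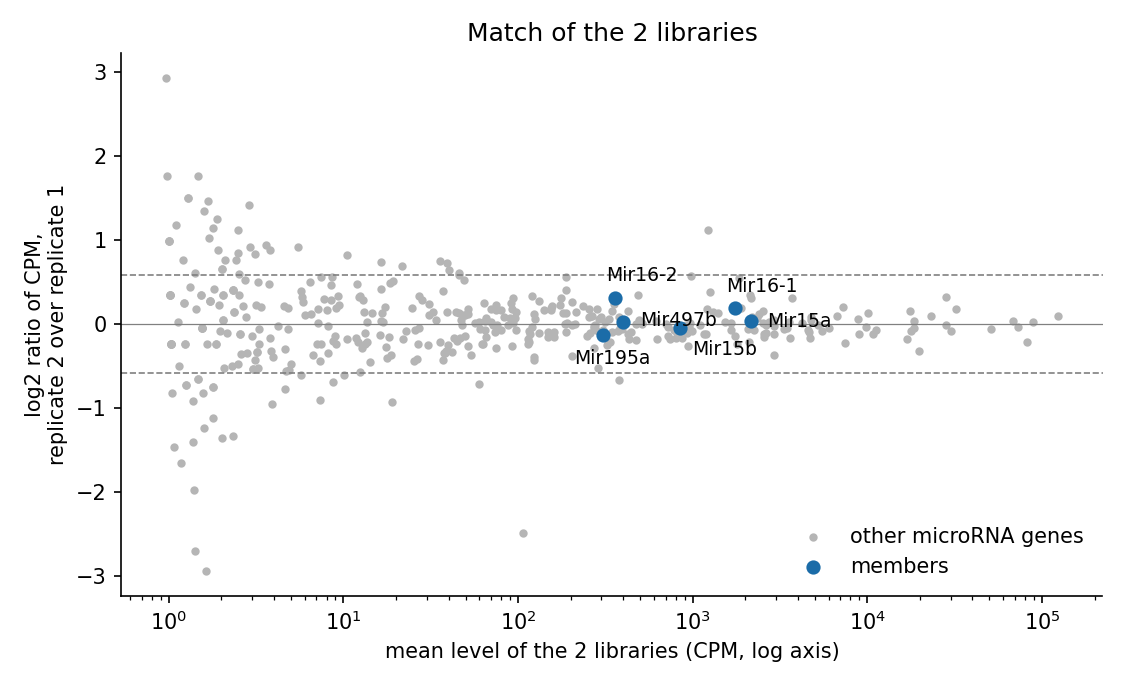
Log2 ratio of CPM, replicate 2 over replicate 1 (y axis), against the mean level in CPM on a log axis, for the members (blue) and the other genes with at least 10 counts in total (grey). Dashed lines mark 1.5-fold, and the members lie between them, from -0.13 for Mir195a to 0.31 for Mir16-2.

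A gene outside the family with the same seed had far more counts than the family holds. Outside the family, 5 genes of the tables have a mature sequence with AGCAGCA at bases 2 to 8, and 1 of these was counted. That gene is Mir322, the mouse counterpart of human mir-424, on chromosome X (ENSMUSG00000065418.1, chrX:53054255-53054349). Mir503 beside it (ENSMUSG00000076122.1, chrX:53053984-53054054) shares bases 2 to 7 only. Both are known, like the family, to act on cell cycle genes. Their 5p arms are printed with bases 2 to 8 in capitals, to set beside those of the family.
miR-322-5p: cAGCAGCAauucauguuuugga
miR-503-5p: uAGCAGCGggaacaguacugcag

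Mir322 had 394957 counts (88188 CPM) and 403076 counts (76341 CPM), a mean of 82265 ± 8376 CPM (SD, n = 2). It exceeded the sum of the 6 members 15.6-fold (95% counting interval 15.4 to 15.8) and 12.8-fold (12.7 to 13.0). The gap was many times the difference between the libraries. Genes with this seed took 8.81% ± 0.816 (SD, n = 2) of the sense counts, and the family made up 6.63% ± 0.861 (SD, n = 2) of that class, with Mir322 the rest. These are counts of whole hairpins, in which the 3p arm without this seed is included, and the mir-16 genes lack their shared reads. The share of the seed among mature molecules was therefore not measured.

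Mir503 stood at 2846 and 2956 CPM, a mean of 2901 ± 77.4 CPM (SD, n = 2). It exceeded Mir15a by 1.34-fold in replicate 1 (1.30 to 1.37) and 1.36-fold in replicate 2 (1.32 to 1.39). Mir195b, Mir6342, Mir6353 and Mir6419, which also carry the seed, had 0 counts in both libraries, which allows levels of up to 0.670 and 0.568 CPM. The mature miR-195b is close to miR-195a-5p, with U17G, G19A and C21A over 21 bases. Reads of the 2 are thus set apart only near the 3′ end.

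The mir-17-92 cluster, known for driving proliferation, was set beside the family, since both are linked to cell division. Its 6 genes took 3.80% ± 0.159 (SD, n = 2) of the sense counts, 6.54 times the family in replicate 1 (6.45 to 6.63) and 6.58 times in replicate 2 (6.50 to 6.66). The libraries did not differ in this ratio by more than counting error. The cluster ran from Mir17 at 23223 ± 1149 CPM down to Mir19b-1 at 10.5 ± 0.930 CPM (SD, n = 2). The mature miR-19b-3p and miR-92a-3p also lie in Mir19b-2 and Mir92-2 on chromosome X, so reads that fit both copies are counted to neither, as for mir-16. The low end of this range is thus no measure of miR-19b-3p. Shared reads are missing on both sides of the ratio to the family, so it compares counted reads and not mature microRNAs.

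**Figure D5:**
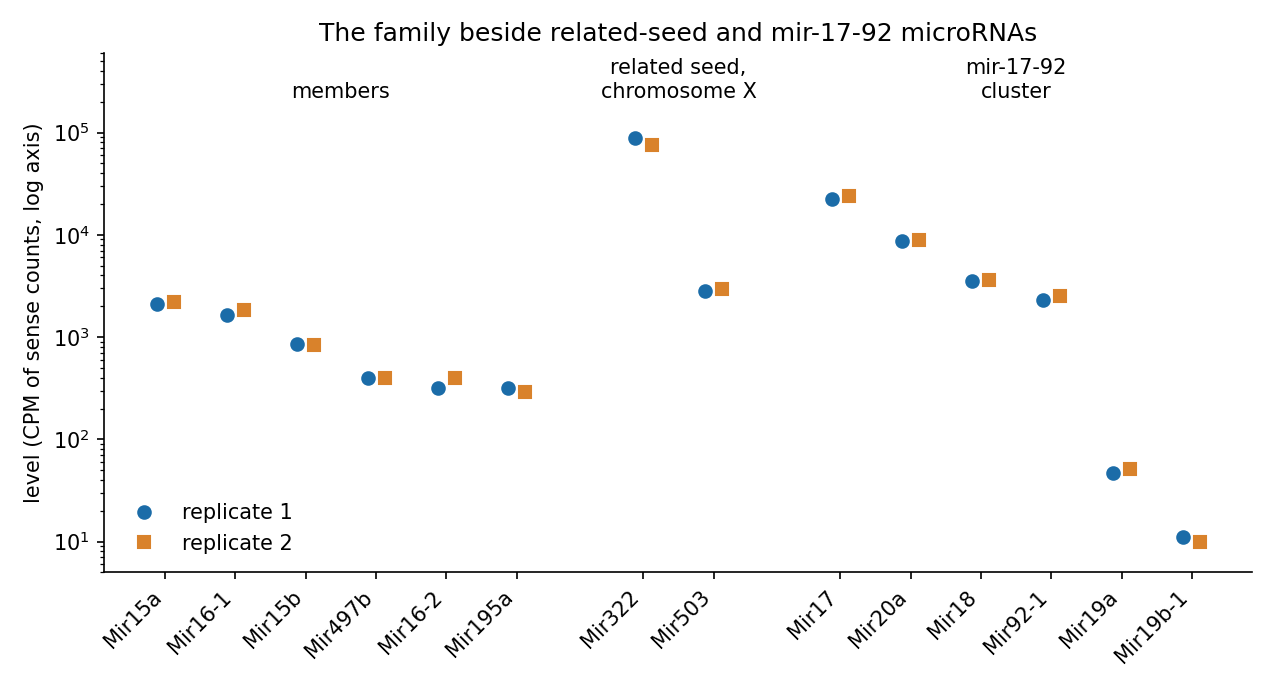
Level in CPM on a log axis for the 6 members, for Mir322 and Mir503, and for the genes of the mir-17-92 cluster, with replicate 1 as circles and replicate 2 as squares. Mir322 stands at 76341 CPM or above, and the members span 292 to 2178 CPM.

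Genes at the most similar level in both libraries were found by the distance of log2 CPM, among 283 genes with at least 10 CPM in both. For Mir15a these were Mir499 (distance 0.01), Mir188 (0.01) and Mir302a (0.05). For Mir195a they were Mir185 (0.04), Mir203 (0.08) and Mir125b-1 (0.12). Over 2 libraries this is mostly a likeness of level. Mir499, a heart muscle microRNA from an intron of Myh7b, stood at 2114 and 2162 CPM, against 2127 and 2178 CPM for Mir15a.

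The tissue label was checked by markers. Heart muscle microRNAs (Mir208a, Mir208b and Mir499) took 6.29% ± 0.144 (SD, n = 2) of the sense counts, the endothelial Mir126a 6.79% ± 0.123 (SD, n = 2), and Mir143 with Mir145a of smooth muscle 8.96% ± 0.121 (SD, n = 2). Other muscle microRNAs had low counts. Mir1a-1 stood at 3.60 CPM in the mean, Mir1b at 2.33, Mir133a-1 at 1.68 and Mir133a-2 at 0.98. Mir1a-1, Mir133a-1 and Mir133a-2 are numbered copies, and reads that fit several copies are counted to none. Their low counts are thus no measure of the mature microRNAs. How many reads are missing in this way, and whether this touches Mir1b, was not tested. Red blood cell precursor microRNAs (Mir451a and Mir144) took 0.0926% and 0.181% in replicates 1 and 2, and the liver microRNA Mir122 0.0181% and 0.00324%. Of 5 neural genes in the tables, 3 had 0 counts in both libraries, and the 5 together took at most 0.000201% in a library. All 5 are numbered copies of Mir124a or Mir9, and reads shared between copies are not counted. Their low counts are therefore no check for neural tissue. Of the red blood cell pair, Mir451a was higher in replicate 2, at 1671 against 770 CPM, and Mir144 lower, at 139.8 against 156 CPM, and the part of red blood cells in the levels of the family was not tested.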

How the data were processed

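The authors deposited raw counts of reads per microRNA gene, 1 table per library, once for both strands together, once for the gene's own strand (sense) and once for the other strand (antisense). Assembly mm10 and annotation M4 are named in the descriptions deposited with the tables. What aligned and counted the reads is not given in the sources used here. The columns carry no names; their meaning was read from sums, which with the 4 rows that name no gene come to the same total. Those rows were left out of library sizes. Reads that fit several places were 27.1% and 25.3% of all reads, unmapped reads 18.1% and 19.1%, and reads outside genes on the sense strand 6.29% and 5.88%.

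Of 1973 identifiers, 1894 matched GENCODE M21, which gave symbols and positions. Mir18a was found as Mir18. Sequences came from RefSeq on GRCm38.p6, with 1005 hairpins and 1738 mature entries. Here CPM was computed over sense counts, ratios got exact binomial 95% intervals, and a count of 0 was given the limit of 3 counts. Python 3.11.15, numpy 2.4.6, pandas 2.3.3, scipy 1.17.1 and matplotlib 3.10.9 were used, with edgeR 4.0.16 (TMM) and DESeq2 1.42.0 in R 4.3.3 for other scalings. The ratio step was tested on simulated data first.

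The members and lists were chosen with earlier results of these data known. Named were all 6 members, same-seed genes, the highest and lowest gene of the mir-17-92 list, 3 genes nearest in level to Mir15a and to Mir195a, and tissue markers (Mir9-1 not analysed here). Alternatives changed strand column, denominator, scaling, filter, fold and seed length, and left out each replicate.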

Additional observations from a re-analysis of the deposited data

Results flagged for a closer look

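Reads placed at more than 1 position enter the count of no gene, and they made up 26.2% of all reads in the mean of the libraries, far above the limit that a count of 0 allows. They are a signal outside the gene counts. Reads within the 23 bases shared by Mir16-1 and Mir16-2 belong to this pool by its definition. How many of the pool they are was not tested.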

How the results depend on the processing

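The family's share of 0.580% was 0.555% with counts without regard to strand, 0.285% per all reads of the library, 0.662% without Mir335 (the most abundant gene) in the denominator and 0.540% with the sense counts of Mir497b in place of those on the Mir497 strand. It ran from 0.565% to 0.595% with either replicate left out. The share of the mir-17-92 cluster was 3.64% without regard to strand. These shifts follow from the changed denominators or counts themselves. The 6 ratios between members carry no denominator, and with no reads on the opposite strand of 5 members the strand choice can hardly move them, so it is no check of them. With 2 libraries, leaving out 1 only returns the value of the other, given above. With bases 2 to 7 as the seed, the class took 9.10% in place of 8.81%, less than the spread between replicates. The count of members apart by 1.5-fold was 0 under TMM and DESeq2 size factors. The filters and the 2-fold limit could not raise it. Over all genes the count of 67 was 68 under TMM, 69 under DESeq2 size factors, 148 of 586 without a filter (a count in both libraries), 11 of 284 at 10 CPM in both libraries and 25 at 2-fold. The same 6 genes were nearest in level without the filter at 10 CPM. The search of mature sequences in a genome was not run, as none was used here. No paired analysis between conditions was possible because there is only 1 group. Depth limits genes without a count to under 0.670 CPM, and 2 libraries limit every SD.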
